A study of Homo sapiens with 40 samples.

Results

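The 10 imprinted genes described here are 3 long noncoding RNA (lncRNA) genes, KCNQ1OT1, H19 and MEG3, and 7 protein-coding genes, IGF2, PEG10, CDKN1C, PHLDA2, SNRPN, MEST and DIO3. They were taken by gene name from 2 expression tables, of 57939 genes in total RNA and 58336 genes in polyA RNA, and all 10 were found in both. All samples were wild-type H1, a long-established line of human embryonic stem cells. Day 0 samples were undifferentiated, and those of days 3 and 5 had been driven toward mesoderm in serum-containing medium, with BMP4 for the first day and bFGF added after it. On each day total RNA was taken from INPUT, here read as unfractionated RNA, and from successive extracts, namely the cytoplasmic (CE), membrane (ME), soluble nuclear (SNE) and chromatin-bound nuclear (CBNE) extracts and, last, what was extracted from the pellet (PE). Each of the 18 groups had 2 libraries, 36 in all. PolyA RNA of the cytoplasm and the nucleus was sequenced at day 0 only, in 2 libraries each.

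Imprinted genes are expressed mainly or only from the maternal or the paternal chromosome, according to DNA methylation laid down in the germ line. They lie in domains that often hold an lncRNA together with coding genes, and some of these lncRNAs, KCNQ1OT1 among them, are kept at chromatin, where they silence neighbouring genes on the same chromosome. Many imprinted coding genes act in growth of the embryo and placenta. The tables hold one value per gene and do not separate the parental copies, so they show where the RNA lay and how much of it there was, and not its imprint.

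KCNQ1OT1 is copied from the strand opposite to KCNQ1, from a promoter inside that gene that is methylated on the maternal chromosome. It is a single exon of 91667 bases (chr11:2608328-2699994 on GRCh38, minus strand, GENCODE 29), and 100% of it lies within KCNQ1 or other genes. The comparison of imprinted lncRNAs with mRNAs rests on it. The stretch before the only exon of DIO3 (chr14:101561351-101563452, plus strand) is shown because DIO3 rose the most in INPUT. Capitals mark each CG dinucleotide, the site of DNA methylation.
DIO3, the 106 bases before the exon, chr14:101561245-101561350, plus strand, RefSeq on GRCh38.p14: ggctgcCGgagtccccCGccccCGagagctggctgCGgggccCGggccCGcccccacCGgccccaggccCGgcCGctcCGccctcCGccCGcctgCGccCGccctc
The DIO3 stretch holds 14 CG dinucleotides. Of 35116 RefSeq promoter windows, 15.5% held at least 14 CG in the 106 bases before the RefSeq start, with a median of 5. The DIO3 stretch was placed by the GENCODE exon instead, and may lie at another distance from the RefSeq start of DIO3. The share is therefore a rough scale and does not rank DIO3 among promoters at a like position. Methylation was not measured in these files, and RefSeq windows were found for 5 of the 10 genes.

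Values are TPM, the share of a library that a gene takes after scaling by length. By estimate, INPUT, CE, ME and SNE libraries held 904906 to 1815620 gene reads, PE libraries 37037 to 471910, CBNE libraries 19599 to 90433 and polyA libraries 14449217 to 17270359. The total RNA estimates are too low for some genes. KCNQ1, for example, came out as 0.00616 reads at 0.306 TPM in the first day 5 CBNE library. A single read on a 1 kb transcript was worth 0.707 to 1.81 TPM in the first 4 of these and 13.8 to 61.8 TPM in CBNE. Differences were tested in limma on log2(TPM + 1), and a gene was called at an adjusted p under 0.05 with an absolute log2 difference of at least 1. The number after ± is the standard error. Whether replicates came from different cultures is not given, and p-values therefore measure only the spread between these libraries, which may be technical. In INPUT the summed TPM of 10 pluripotency markers fell from between 4923 and 4939 on day 0 to between 2163 and 2167 on day 5. Among them SOX2 was listed at 0 throughout, which is not read here as absence. That of 12 primitive streak and mesoderm markers went from between 24.7 and 26.1 to between 1626 and 1739. Amnion and trophoblast markers (15 genes) went from between 46.8 and 47.1 to between 836 and 848, and endoderm markers (8 genes) from between 13.4 and 13.8 to between 962 and 982. Neural markers (6 genes) went from between 61.1 and 61.6 to between 30.3 and 33.2, and markers of endothelium and blood (6 genes) from between 93.0 and 98.6 to between 32.1 and 33.8. In the endothelium and blood list, genes with at least 1 TPM in both libraries went from 1 on day 0 to 3 on day 5. The fall of that sum was thus not shared by the list. The same count went from 3 to 11 for primitive streak and mesoderm, from 4 to 14 for amnion and trophoblast and from 4 to 5 for endoderm. The endoderm sum thus rose with little change in the number of its genes at that level. The part that cells of these kinds play in the changes below was not tested, and a change in the share of a cell type and a change in RNA per cell cannot be told apart in bulk RNA. Among the control lists, 6 of 6 cytoplasmic RNAs were called lower in SNE than in CE on each day, and 5, 6 and 5 of 6 nuclear RNAs were called higher on days 0, 3 and 5.

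Of the 3 lncRNAs, KCNQ1OT1 had a level that could be tested in the total RNA, and its SNE minus CE difference was the highest of the tested members on every day. On day 0 it stood at 104 and 110 TPM in SNE, at 13.1 and 13.3 in CE, at 23.7 and 25.2 in ME and at 27.7 and 30.4 in INPUT. Both SNE libraries were above all libraries of the other extracts, and CE, ME and INPUT did not overlap. On day 3 SNE stood at 28.6 and 29.1 TPM and CE at 1.77 and 1.91, and on day 5 SNE stood at 56.7 and 60.4 and CE at 2.12 and 2.24. The SNE minus CE difference was 2.92 ± 0.11 on day 0 (adjusted p = 4.9e-12), 3.39 ± 0.11 on day 3 (adjusted p = 1e-12) and 4.23 ± 0.11 on day 5 (adjusted p = 7.4e-14). For comparison, the median difference of all 4923 lncRNAs tested was 0.76, 0.74 and 0.95, and that of 14384 protein-coding genes was 0.56, 0.62 and 0.71.

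KCNQ1OT1 stood lower on days 3 and 5 than on day 0 in every INPUT, CE, ME and SNE library. INPUT held 13.8 and 14.8 TPM on day 3 and 15.2 and 17.1 on day 5, all below both day 0 libraries, a difference of -0.97 ± 0.11 on day 3 (adjusted p = 4.1e-06) and -0.81 ± 0.11 on day 5 (adjusted p = 1.6e-05), neither of which reached the size needed for a call. The SNE minus CE difference grew by 1.31 ± 0.15 between days 0 and 5 (adjusted p = 1.1e-05), while the change to day 3, 0.47 ± 0.15 (adjusted p = 0.028), was below that size. The change to day 5 shrank to 0.95 when libraries were brought to a common median and to 0.44 with quantile normalization, where the change to day 3 was -0.42. Bringing libraries to a common median lowered the SNE minus CE differences by 0.59, 0.84 and 0.94 on days 0, 3 and 5, and KCNQ1OT1 then stood at 2.33, 2.55 and 3.29. The library names carry numbers that jump within day 5, between CE, INPUT and the first ME library on one side and the second ME library, SNE, CBNE and PE on the other, so on that day the extract and the jump cannot be told apart.

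In the shallow extracts KCNQ1OT1 also exceeded CE after day 0. PE held 41.0 and 22.5 TPM on day 0, 25.1 and 22.7 on day 3 and 28.5 and 38.8 on day 5, and the differences from CE were 1.14 ± 0.20, 3.13 ± 0.20 and 3.43 ± 0.20 (adjusted p = 7.3e-05, 5.5e-11 and 2.7e-11). Without the first PE library of day 0 the day 0 difference was 0.72 and no longer called. In CBNE, the extract freed with micrococcal nuclease, it stood between 7.29 and 10.7 TPM in all 6 libraries. There it was not called against CE on day 0 (-0.53 ± 0.20, adjusted p = 0.030) and was higher on day 3 (1.88 ± 0.20, adjusted p = 6.3e-08) and day 5 (1.49 ± 0.20, adjusted p = 1.7e-06). On every day both CBNE libraries lay below both SNE and both PE libraries. Day 0 CBNE values rest on an estimated 29 and 17 reads, against 7141 and 6257 in SNE. KCNQ1, the potassium channel gene that contains the lncRNA, was far lower, at 0.766 and 0.857 TPM in day 0 INPUT. It stood at 2.23 and 2.34 TPM in day 0 SNE and at 0.279 and 0.444 in day 5 SNE, and its SNE minus CE difference was 1.12 on day 0 and 0.37 on day 5. The strand used in counting is not given in the sources used here, so reads from KCNQ1 introns and from KCNQ1OT1 cannot be told apart.

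In polyA RNA KCNQ1OT1 was listed at 0 in all 4 libraries. This 0 is not read here as absence. The check took genes with at least 5 TPM in day 0 INPUT. Of 987 that lie wholly inside another gene, 717 (72.6%) were listed at 0 in all 4 polyA libraries. Of 5866 that overlap no other gene, 104 (1.77%) were. The genes were not split by type, and RNAs without a polyA tail may be among them. The check therefore cannot tell whether KCNQ1OT1 was missing from polyA RNA or only from the counts.

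H19 and MEG3, the other 2 lncRNAs, were close to the limit of the data. H19 (chr11:1995176-2001470) is a spliced RNA expressed from the maternal chromosome beside IGF2 and is abundant in embryonic and placental tissue. It was listed at 0 in 24 of 36 total RNA libraries and reached 1 TPM in 3. Those were 1 of 2 CBNE libraries of day 0 (6.25 TPM), 1 of 2 PE libraries of day 0 (4.04) and 1 of 2 PE libraries of day 5 (1.07), shallow extracts in which the other replicate was at 0. Elsewhere it was at or below 0.562 TPM, and INPUT of day 5 held 0.166 and 0.185. The deeper polyA libraries held 2.59 and 3.51 TPM in the cytoplasm, from 31 and 44 estimated reads, and 2.09 and 3.55 in the nucleus, from 17 and 30. These overlap, and the nucleus minus cytoplasm difference was -0.10 ± 0.24 (adjusted p = 0.72).

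MEG3 (chr14:100779410-100861031) is an lncRNA expressed from the maternal chromosome of the domain that also holds DIO3. It was at or below 0.0921 TPM in all INPUT libraries and reached 1 TPM in 3 of 36 libraries, all of day 0: both CBNE libraries (2.07 and 1.45 TPM) and 1 PE library (1.89, against 0.311 in the other). In SNE it stood at 0.180 and 0.256 TPM on day 0, at 0 in both libraries on day 3, and at 0.0658 and 0 on day 5. MEG3 entered the fit of all 36 libraries only through these values, so no test of it is given. On day 3 both CBNE and both PE libraries listed it at 0. Each read on 1 kb was worth 33.7 to 39.3 TPM in CBNE of day 0, so these values rest on very few reads. The polyA libraries held at most 0.0739 TPM.

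Of the 2 coding genes of the KCNQ1OT1 domain, CDKN1C was called lower in SNE on every day and PHLDA2 was called in no comparison. CDKN1C (chr11:2883213-2885773) encodes p57, an inhibitor of cyclin-dependent kinases that restrains growth. INPUT held 26.8 and 28.7 TPM on day 0, 14.2 and 12.6 on day 3 and 62.4 and 46.8 on day 5, with no overlap between days. It rose by 1.94 ± 0.36 from day 3 to day 5 (adjusted p = 6.4e-04), while the day 3 difference from day 0 of -0.996 ± 0.36 (adjusted p = 0.038) fell just short of the size for a call. In CE it stood at 45.3 and 25.9 TPM on day 0, 26.9 and 31.5 on day 3 and 86.8 and 58.8 on day 5. SNE held 5.21 and 5.64, 5.75 and 5.15, and 26.6 and 13.5 on those days, so no SNE library reached a CE library of its day. The SNE minus CE difference was -2.46 ± 0.36, -2.22 ± 0.36 and -1.86 ± 0.36 (adjusted p = 2e-05, 5.5e-05 and 2.7e-04). No difference from CE was called in CBNE or PE on any day.

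PHLDA2 (chr11:2928273-2929455) encodes a small protein that limits growth of the placenta. INPUT held 7.06 and 8.41 TPM on day 0, 19.6 and 22.4 on day 3 and 27.4 and 22.6 on day 5. Both later days lay above day 0, but the difference of 1.57 ± 1.23 to day 5 was not called (adjusted p = 0.32). Replicates stood far apart in CE, at 10.4 and 53.2 TPM on day 3 and at 46.4 and 0 on day 5. A 0 beside a replicate with at least 20 estimated reads was found in 4 of 95540 gene pairs over INPUT, CE, ME and SNE, this being one of them. Fitted on INPUT of day 0 and day 5 alone, the difference was called (adjusted p = 0.0031). SNE held 0 in both libraries on day 0, 6.23 and 10.04 on day 3 and 4.54 and 3.07 on day 5. The SNE minus CE difference of day 5 was -0.54 ± 1.23, and it became 2.25 without the first CE library and -3.32 without the second.

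IGF2, the fetal growth factor expressed from the paternal chromosome next to H19, was listed at 0 in all 36 total RNA and all 4 polyA libraries. All its exon bases (100%) lie within other gene models and 75.0% within their exons. The second model of the locus, ENSG00000284779, and the read-through gene INS-IGF2 were listed at 0 in every library as well. The antisense gene IGF2-AS was listed above 0, at 1.19 and 1.16 TPM in day 5 CE. As with KCNQ1OT1 in polyA RNA, the 0 of IGF2 is not read as absence, and IGF2 enters no comparison. In total RNA, zeros of this kind were less common among genes with at least 5 TPM in polyA RNA. Of 78 that lie wholly inside another gene, 10 (12.8%) were listed at 0 in all total RNA libraries. Of 6297 that overlap no other gene, 46 (0.731%) were. The 139 microRNA and snoRNA genes listed for imprinted domains, among them MIR675 within H19 and MIR335 within MEST, were listed at 0 in every library too.

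PEG10 and MEST, both expressed from the paternal chromosome, were the most abundant members in INPUT of days 0 and 3. PEG10 (chr7:94656325-94669695) derives from a retrotransposon, encodes a Gag-like protein and is needed for the placenta. Its INPUT level stood at 140 and 141 TPM on day 0, 320 and 325 on day 3 and 616 and 594 on day 5. It rose by 1.19 ± 0.07 to day 3 (adjusted p = 3.2e-09) and by 2.10 ± 0.07 to day 5 (adjusted p = 3.8e-12). With DIO3 it made 2 members called higher of 7 tested at each of these steps, and none was called lower. Of all 23238 genes, 5.17% were called higher and 5.34% lower on day 3, and 7.63% and 9.32% on day 5. From day 3 to day 5 the members called higher were CDKN1C and DIO3, beside 3.48% of all genes called higher and 3.43% lower.

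PEG10 RNA also differed between days in its extracts. On day 0 CE held 202 and 208 TPM, against 41.7 and 39.2 in SNE and 42.0 and 43.3 in ME. By day 3 CE held 313 and 349, SNE 344 and 342 and ME 417 and 379, so SNE lay within the range of CE. On day 5 CE held 676 and 706, SNE 464 and 405 and ME 693 and 687. SNE minus CE was -2.31 ± 0.07 on day 0 (adjusted p = 8.2e-13), 0.05 ± 0.07 on day 3 (adjusted p = 0.48) and -0.67 ± 0.07 on day 5 (adjusted p = 2.3e-07). The change from day 0 was 2.37 ± 0.09 on day 3 (adjusted p = 3.7e-09) and 1.64 ± 0.09 on day 5 (adjusted p = 2.5e-08), both called. PEG10 was the only member called in the change to day 3, when 5.19% of all genes were called higher and 2.37% lower. The change kept its sign under each scaling, from 2.11 to 3.33 on day 3 and from 1.28 to 3.04 on day 5. The sign of the day 3 difference itself did not, at -0.79 with a common median and 0.84 with quantile normalization, and on day 5 these gave -1.61 and 0.55. ME followed the same course, from -2.24 ± 0.07 against CE on day 0 (adjusted p = 4.2e-12) to 0.27 ± 0.07 on day 3 and -0.00 ± 0.07 on day 5. In PE, PEG10 went from 30.4 and 13.8 TPM on day 0 to 184 and 181 on day 3 and 428 and 557 on day 5. In CBNE it was called lower than CE on every day. In polyA RNA of day 0 its levels overlapped, with 165 and 188 TPM in the cytoplasm and 183 and 184 in the nucleus.

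MEST (chr7:130486171-130506465) encodes an enzyme of the alpha/beta hydrolase family in the endoplasmic reticulum. Its INPUT level was 140 and 137 TPM on day 0, 92.8 and 96.7 on day 3 and 139 and 138 on day 5. The dip of day 3 was -0.54 ± 0.08 (adjusted p = 1e-04), under the size for a call. CE held 174 and 185, 138 and 149, and 187 and 190 TPM on the 3 days, and SNE 84.0 and 78.4, 57.5 and 58.3, and 104 and 112. SNE minus CE was -1.13 ± 0.08 on day 0 (adjusted p = 1e-08), -1.29 ± 0.08 on day 3 (adjusted p = 2.2e-09) and -0.80 ± 0.08 on day 5, the last not called for its size. With totals remade without mitochondrial and structured RNA the first 2 became -0.80 and -0.84. ME minus CE for MEST was -1.80, -1.42 and -1.37 on days 0, 3 and 5, each called, and MEST was called lower than CE in CBNE and PE on every day. The PE difference of day 5, -1.15 ± 0.26 (adjusted p = 0.0010), was -0.96 and not called without the first PE library. In polyA RNA the cytoplasm held 229 and 232 TPM and the nucleus 118 and 120, a difference of -0.95 ± 0.04 (adjusted p = 1.2e-05). MEST thus leaned to the cytoplasmic side in both kinds of RNA.

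SNRPN (chr15:24823637-24978723) encodes SmN, a protein of the spliceosome, from the Prader-Willi domain, and was the one tested coding member called higher in SNE than in CE. CE held 1.39 and 1.62 TPM on day 0, 0.821 and 0.866 on day 3 and 1.05 and 1.08 on day 5. SNE held 7.52 and 8.50, 8.72 and 9.10, and 18.5 and 20.6 on the same days, all above every CE library. The difference was 1.84 ± 0.11, 2.43 ± 0.11 and 3.31 ± 0.11 (adjusted p = 1.2e-09, 5e-11 and 1.1e-12), and it grew by 1.47 ± 0.16 to day 5 (adjusted p = 6.7e-06). Quantile normalization lowered the day 0 difference to 0.97. The length that scaled SNRPN in total RNA is not given in the sources used here, so no read numbers are given for these CE levels. CBNE held still more, 9.79 and 9.64 TPM on day 0, 21.3 and 20.9 on day 3 and 25.1 and 25.1 on day 5. SNRPN was thus called higher in CBNE than in CE on every day, by 3.66 ± 0.16 on day 5 (adjusted p = 4.2e-14). A read on 1 kb was worth at least 33.7, 13.8 and 51.8 TPM in CBNE on days 0, 3 and 5. These CBNE values may therefore rest on few reads. INPUT held between 1.82 and 4.43 TPM.

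In polyA RNA SNRPN leaned the other way, with 28.4 and 25.0 TPM in the cytoplasm and 13.3 and 13.4 in the nucleus, a difference of -0.95 ± 0.08 (adjusted p = 1.8e-04) that missed the size for a call and passed it under each of 3 scalings (-1.43, -1.49 and -1.08). The tables were normalized separately and the fractions differ, so no test was made between them. Whole read estimates were counted among genes with a single annotated transcript. They made up 99.5% to 99.7% of low values in polyA RNA and 50.5% to 61.4% in total RNA. These shares cannot tell whether the 2 tables count the same parts of SNRPN. Since that is not known here, the 2 directions may not describe the same RNA. Of its exon bases, 33.6% lie in exons of other genes and 63.0% within other genes, and SNURF, which is read from the same transcripts, was listed at 0 in all total RNA libraries. SNHG14, the host lncRNA of the same domain, stood at 103 and 106 TPM in day 0 CE and 315 and 326 in day 0 SNE, and in polyA RNA at 76.2 and 84.5 in the cytoplasm and 234 and 231 in the nucleus. Its direction was the same in both kinds of RNA, with differences of 1.61 and 1.52. SNRPN and SNHG14 overlap and are read in the same direction, so how reads in the overlap were divided is not known here.

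DIO3 encodes the deiodinase that inactivates thyroid hormone and is expressed mainly from the paternal chromosome. Its INPUT level was 0.795 and 0.728 TPM on day 0, 2.10 and 3.73 on day 3 and 199 and 193 on day 5. The estimated reads behind these were 2 and 2, 4 and 8, and 400 and 349. The rise to day 5 of 6.81 ± 0.27 (adjusted p = 5.7e-11) was the largest of the members, with 5.69 of it after day 3 (SE 0.27, adjusted p = 1.6e-09). The day 3 difference of 1.12 ± 0.27 (adjusted p = 0.0043) was 0.81 and no longer called without the second day 3 library.

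On day 5 DIO3 was highest in CE and lowest in the nuclear extracts. CE held 283 and 339 TPM, ME 156 and 142, PE 94.5 and 114, SNE 27.3 and 25.9 and CBNE 29.4 and 24.6, the last from 1 estimated read in each library. CE, ME, PE and SNE did not overlap. SNE minus CE was -3.49 ± 0.27 (adjusted p = 2e-08). ME minus CE was -1.05 ± 0.27 (adjusted p = 0.0053), and that call was lost without the second ME library (-0.98), without the second CE library (-0.92), with quantile normalization (-0.21) and with the remade totals (-0.14). On day 3 CE held 3.59 and 7.06 TPM of DIO3 and SNE 1.40 and 2.51, a difference of -1.07 ± 0.27 (adjusted p = 0.0029) that was not called without the first SNE library (-0.79) or the second CE library (-0.66). On day 0 DIO3 was listed at 0 in both SNE libraries against 2.51 and 1.43 TPM in CE, or 6 and 4 estimated reads. PE of day 0 held 60.5 and 29.3 TPM, from 5 and 2 estimated reads, and was called higher than CE (3.88 ± 0.31, adjusted p = 2e-09). The SNE minus CE difference changed by -1.95 ± 0.39 between days 0 and 5 (adjusted p = 0.0010), but with a pseudocount of 0.1 in place of 1 the change was 0.78.

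DIO3OS, the lncRNA on the opposite strand beside DIO3, rose by day 5 as well and had the opposite distribution there. INPUT held 0.204 and 0 TPM of DIO3OS on day 0, 0.806 and 1.07 on day 3 and 13.2 and 14.5 on day 5, a rise of 3.76 ± 0.16 from day 0 (adjusted p = 1.1e-10). On day 5 SNE held 26.4 and 31.2 TPM and CE 7.18 and 6.99, a difference of 1.88 ± 0.16 (adjusted p = 6.3e-08), against -3.49 for DIO3 in the same libraries. MEG3, on the other side of this domain, did not exceed 0.0128 TPM in day 5 INPUT.

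**Figure D1:**
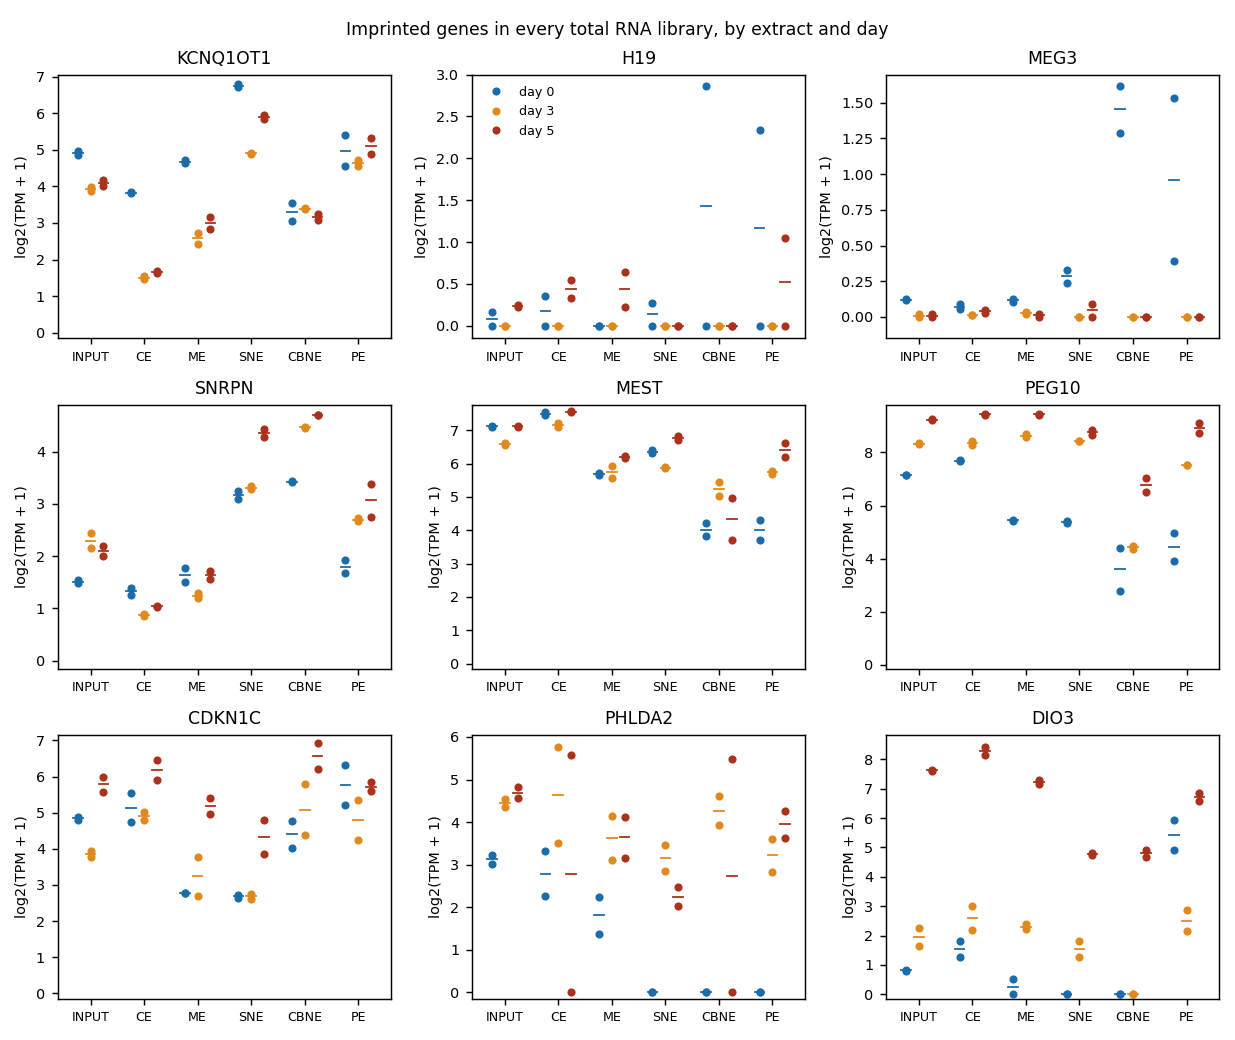
Level of 9 members in each of the 36 total RNA libraries as log2(TPM + 1), by extract and day (points, libraries; short lines, means of the 2 libraries), with a separate scale in each panel; IGF2 is left out because it was listed at 0 throughout. KCNQ1OT1 and SNRPN are higher in SNE than in CE on every day, CDKN1C and MEST are lower, PEG10 in SNE joins CE on day 3, and DIO3 is high on day 5.

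The comparison of imprinted lncRNAs with imprinted mRNAs set 1 tested lncRNA, KCNQ1OT1, against 6 tested mRNAs. On day 0, SNE minus CE was called higher for 2 members, KCNQ1OT1 and SNRPN, and lower for 4, PEG10, CDKN1C, MEST and DIO3, of 7 tested. Over all genes 34.5% were called higher and 11.4% lower. On day 3 the calls were 2 higher and 3 lower (background 35.2% and 9.23%), and on day 5 they were 2 higher and 2 lower (background 40.4% and 11.1%). KCNQ1OT1 at 2.92, 3.39 and 4.23 stood above the median of the 6 mRNAs at -1.93, -1.18 and -0.74. The gap was 4.85, 4.57 and 4.96, and the mRNAs ranged from -2.79 to 1.84 on day 0, from -2.22 to 2.43 on day 3 and from -3.49 to 3.31 on day 5. SNRPN thus lay nearer to KCNQ1OT1 than to the other coding members. The members of 1 exon, KCNQ1OT1 and DIO3, stood at opposite ends on day 5, at 4.23 and -3.49, with exonic lengths of 91.7 and 2.10 kb. The signs of KCNQ1OT1, SNRPN, CDKN1C, MEST and DIO3 were the same under each of 3 other scalings on all days. Over all genes the calls were not, with 19.4% higher and 19.2% lower on day 0, 16.4% and 21.3% on day 3, and 20.7% and 25% on day 5 at a common median.

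**Figure D2:**
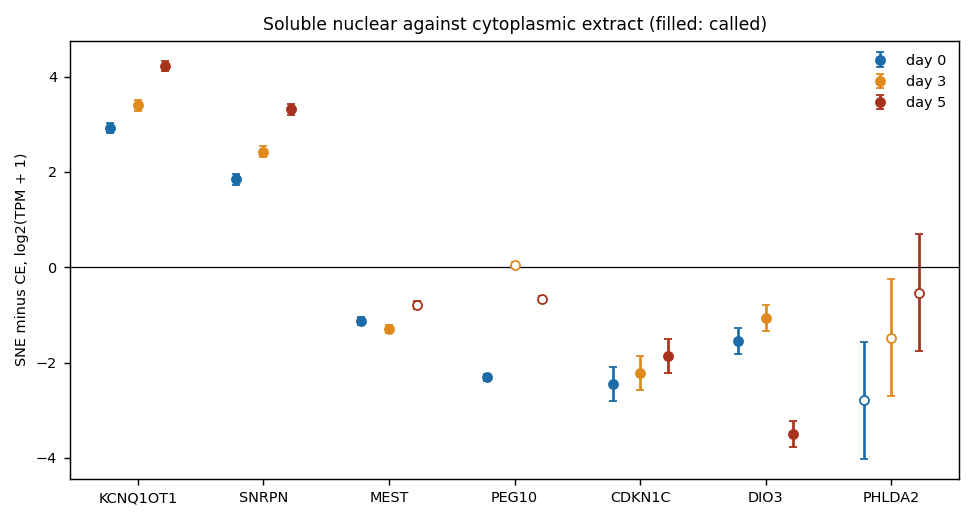
SNE minus CE difference of the 7 tested members on log2(TPM + 1), by day, with standard errors (filled points, called; open points, not called). KCNQ1OT1 and SNRPN lie above 0 on all days, PEG10 moves from -2.31 to 0.05 and -0.67, and PHLDA2 has errors of 1.23.

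ME minus CE gave 4 members lower on day 0 (CDKN1C, DIO3, MEST and PEG10) and none higher, where 20.4% of all genes were called lower and 2.13% higher. On day 3 CDKN1C and MEST were lower and KCNQ1OT1 higher (1.07, and 0.91 and not called without the second ME library; background 10.8% and 1.72%), and on day 5 DIO3 and MEST were lower and KCNQ1OT1 higher (10.3% and 2.82%). H19 and MEG3 passed the filter of the fit with CBNE and PE only through those extracts and are left out of its counts. In CBNE against CE, of the other 7 tested members 1 was higher on day 0 and 2 were higher on each later day, and 3 were lower throughout. Of all genes, those called higher and lower were 14.9% and 27.8%, 25.9% and 18.3%, and 17.6% and 26.6% on these days. MEST, PEG10 and DIO3 were the 3 lower ones throughout, and SNRPN was higher on each day, joined by KCNQ1OT1 on days 3 and 5. DIO3, of 2.10 kb, was listed at 0 in CBNE on days 0 and 3, against CE means of 1.97 and 5.33 TPM. A read on 1 kb was worth at least 33.7 and 13.8 TPM in CBNE on those days. The DIO3 calls of days 0 and 3 therefore cannot tell a lower level from low depth. In PE against CE, KCNQ1OT1 was higher on each day, with DIO3 on day 0 and SNRPN later. MEST was lower on each day, with PEG10 on day 0 and DIO3 on day 5. This made 2 higher and 2 lower on day 0, 2 and 1 on day 3 and 2 and 2 on day 5, beside 8.09% and 26.8%, 25.3% and 8.47%, and 21.4% and 6.21% of all genes. In the change of SNE minus CE to day 5, 3 members were called higher, KCNQ1OT1, PEG10 and SNRPN, and DIO3 lower, where 8.71% and 2.7% of all genes were called. All contrasts of one day share the CE libraries.

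The wider list of 15 other imprinted lncRNAs held 7 that could be tested, and 2, 3 and 4 of them were called higher in SNE on days 0, 3 and 5, or 28.6%, 42.9% and 57.1%, beside 37.6%, 36.7% and 44.8% of all lncRNAs tested. GNAS-AS1, antisense to the GNAS locus, and SNHG14 were higher in SNE than in CE on day 0 by 1.69 and 1.61. DLX6-AS1 joined them on day 3 (2.94 for GNAS-AS1, 2.04 for SNHG14 and 1.82 for DLX6-AS1), and with DIO3OS there were 4 of 7 on day 5. None was called lower as deposited, but at a common median there were 2 higher and 1 lower on day 3 and 3 higher and 2 lower on day 5. The list medians of 0.38, 1.00 and 1.88 compare with 0.76, 0.74 and 0.95 for all lncRNAs tested. KCNQ1OT1 exceeded all 7 on each day. In INPUT, DLX6-AS1 rose by 1.42 to day 3 and 2.42 to day 5, while by day 5 GNAS-AS1 fell by 1.90 and SNHG14 fell by 1.09.

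Of 46 other imprinted coding genes, 34 were tested, and their calls leaned the same way as those of all protein-coding genes, of which 35.5% were higher and 14.4% lower in SNE on day 0, 37.8% and 11.5% on day 3, and 41.9% and 13.7% on day 5. On day 0 there were 15 higher and 6 lower, on day 3 again 15 and 6, and on day 5 there were 17 and 6, with list medians of 0.73, 0.73 and 0.89. At a common median the counts were 8 and 7, 5 and 9, and 12 and 11. PPP1R9A, which encodes the actin-binding protein neurabin, had the largest day 0 difference at 3.08, followed by the disintegrin-family gene ADAM23 at 2.53 and SGCE, the epsilon-sarcoglycan gene next to PEG10, at 2.34. At the other end were NDN, the necdin gene of the Prader-Willi domain, at -4.11, NNAT, the neuronatin gene, at -3.55 and NAP1L5, which encodes a nucleosome assembly protein relative, at -2.17. On day 5 NNAT was at -3.56, NDN at -2.99 and NAP1L5 at -2.71. SGCE and PEG10, which start next to each other in opposite directions, thus stood at 2.34 and -2.31 on day 0. In INPUT the homeobox gene DLX5 rose by 3.53 to day 3 and 6.26 to day 5 and DIRAS3, a RAS-like growth inhibitor, by 2.91 to day 5, while ATP10A fell by 1.27 to day 3 and fell by 1.57 to day 5.

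**Figure D3:**
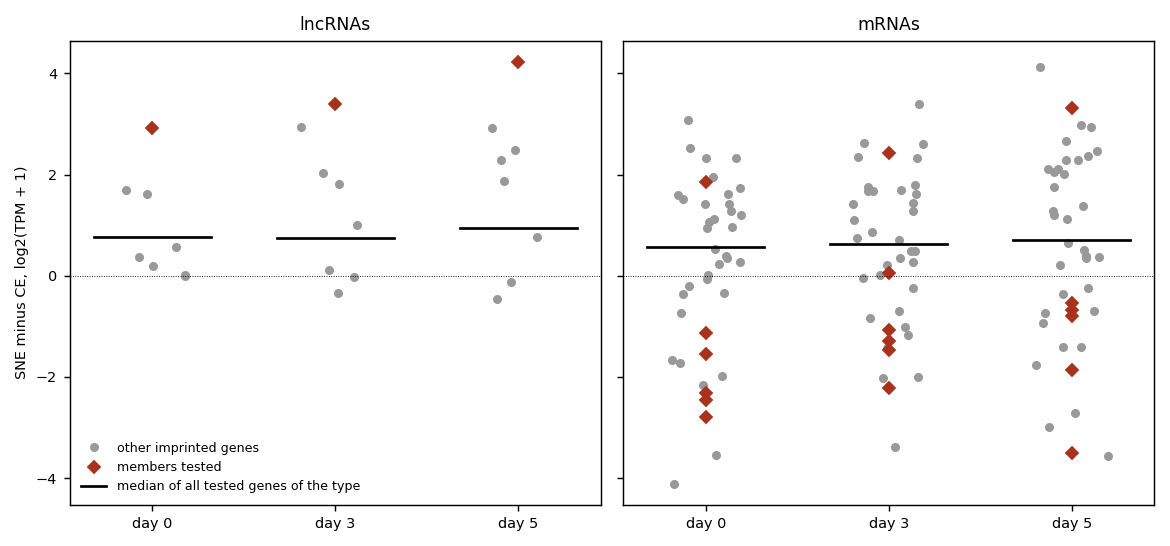
SNE minus CE difference on log2(TPM + 1) of tested imprinted lncRNAs (left) and mRNAs (right) by day (diamonds, members; grey points, other imprinted genes, spread sideways to be seen; black lines, median of all tested genes of the type). KCNQ1OT1 is the highest lncRNA on each day, and the mRNAs spread from below -3 to above 3.

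Genes that keep or erase imprints and genes of the IGF axis were read beside the members. Of 15 tested genes of imprint maintenance, 3 fell by day 3 and none rose, where 5.34% of all genes fell and 5.17% rose. DNMT3B, a de novo DNA methyltransferase that also stands on the pluripotency list, fell by 1.35 and KHDC3L fell by 2.32, and the third was the early-embryo gene DPPA3, which had fallen by day 5 to a difference of -1.49. The DNMT3B difference of day 5 was -2.68, and TET2, which oxidises methylated cytosine, had risen by 2.00 on the log2 scale. Of the genes for IGF-binding proteins, 3 had the largest rises of the IGF axis, IGFBP7 by 4.69 on day 3 and 4.74 on day 5, IGFBP5 by 2.25 and 4.44 and IGFBP3 by 1.69 and 5.71. In the axis as a whole 7 of 21 genes rose and 1 fell by day 3, and 6 rose and 2 fell by day 5. Of all genes 5.17% rose and 5.34% fell by day 3, and 7.63% and 9.32% by day 5. STC1, an inhibitor of the proteases that cut IGF-binding proteins, fell by 2.84 to day 3 and fell by 3.39 to day 5. IGF1R, the receptor through which IGF2 signals, was higher in SNE than in CE on each day (1.97, 2.81 and 3.15). The receptor gene IGF2R was higher in SNE on days 3 and 5 (1.76 and 1.38).

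No member was called in polyA RNA, where 30% of all 16667 genes were higher in the nucleus and 6.22% higher in the cytoplasm. SNRPN and MEST passed the adjusted p but not the size, and they were also the ones with an unadjusted p under 0.05. CDKN1C stood at 6.83 and 14.6 TPM in the cytoplasm and 7.77 and 9.97 in the nucleus, which overlap, and PHLDA2 between 0.968 and 2.88 in all 4 libraries. CDKN1C and PEG10, at -2.46 and -2.31 in total RNA of day 0, stood at -0.17 ± 0.35 and 0.06 ± 0.07 in polyA RNA, and the difference between the tables was not tested. Of the other imprinted lncRNAs, 3 of 3 tested were higher in the polyA nucleus: GNAS-AS1 by 1.83, MEG9 by 1.76 and SNHG14 by 1.52. Of all 2161 lncRNAs tested there, 53.4% were called higher in the nucleus, with a median difference of 1.11.

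**Figure D4:**
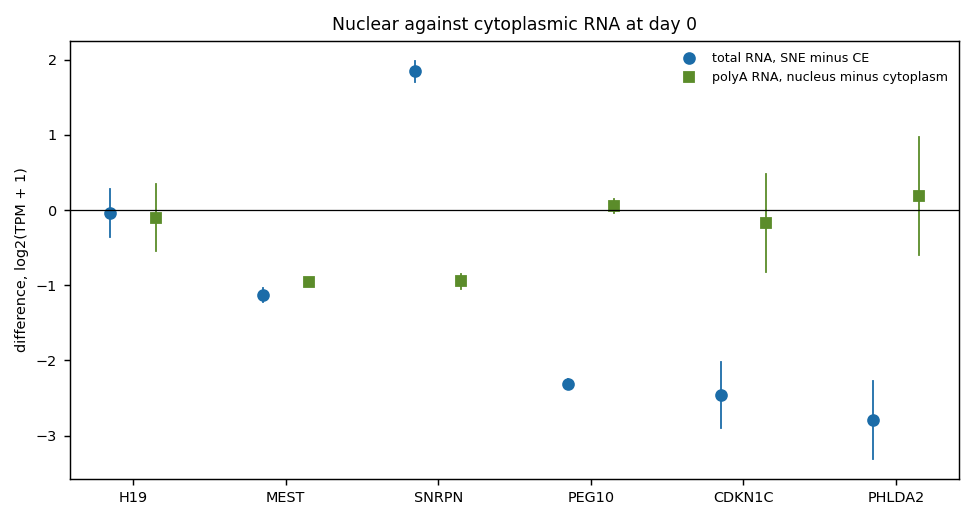
Nuclear minus cytoplasmic difference at day 0 on log2(TPM + 1) for 6 members, in total RNA (SNE minus CE) and in polyA RNA (nucleus minus cytoplasm); symbols are differences of means and lines span the smallest to the largest difference between single libraries. SNRPN is above 0 in total RNA (1.84) and below it in polyA RNA (-0.95), and MEST is below 0 in both. H19 did not exceed 0.279 TPM in CE or 0.212 TPM in SNE of day 0, so its total RNA point rests on values near 0 and was not tested. Whether the 2 tables count the same parts of a gene is not known here.

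Over the 12 group means of INPUT, CE, ME and SNE, and among 16870 genes with at least 5 TPM in 2 libraries, the 3 most alike genes were found for each of the 7 tested members. The points share libraries and the same split of extracts, so these correlations are descriptions. DIO3 was most like APLNR, the apelin receptor gene (Pearson's r = 0.995), POGLUT3 (0.989) and the Wnt ligand gene WNT8A (0.984). PEG10 was most like CANT1 (0.991), IER5 (0.988) and FAM43A (0.977), and KCNQ1OT1 like the lncRNA AL139023.1 (0.990), PLPP3 (0.990) and the lncRNA CASC9 (0.989). SNRPN was nearest to the lncRNA FZD4-DT (0.998), CDKN1C to GM2A (0.983), and MEST to HTATIP2 (0.980). For PHLDA2 the highest value was 0.892, to an snRNA pseudogene. Among the members themselves CDKN1C and MEST were most alike (0.823), followed by PEG10 and DIO3 (0.799) and KCNQ1OT1 and SNRPN (0.792), and KCNQ1OT1 and PHLDA2 were least alike (-0.651).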

How the data were processed

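H1 cells were measured by RNA sequencing in 36 total RNA and 4 polyA libraries, grouped by their titles. Both deposited tables hold TPM as the authors computed it. The unit was read from the values, which sum to between 989513 and 998559 per total RNA library and to 1000000 per polyA library. The tools named per the submitters' processing notes are Salmon 1.3.0, featureCounts 1.6.2, HISAT2 2.0.5 and GATK, with the build hg38; which of them made which table is not given in the sources used here. Since TPM sums to a fixed total, an abundant RNA in an extract lowers the values of all other genes there.

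Read numbers were estimated by taking the commonest value of TPM times length in a library as 1 read. Length was that of the exons in polyA RNA and the mean over annotated transcripts in total RNA. Values up to 10 reads were checked among genes with a single annotated transcript, for which both lengths are the same. Of these, 50.5% to 61.4% in total RNA and 99.5% to 99.7% in polyA RNA lay within 0.05 of a whole number. Total RNA depths are therefore rough, and they are too low where a gene above 0 comes out at a small part of a read, as KCNQ1 does. Coordinates came from GENCODE 29, which held 57939 and 58216 of the identifiers.

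Genes with at least 1 TPM in 2 libraries were fitted with limma 3.58.1 (R 4.3.3) on log2(TPM + 1), with a mean per group and a trended, robust variance prior, and p-values were adjusted over all genes by Benjamini-Hochberg. INPUT, CE, ME and SNE were fitted together (24 libraries, 23238 genes, 12 residual degrees of freedom). CBNE and PE were compared with CE in a fit of all 36 libraries (24735 genes), and polyA RNA in its own fit (16667 genes, 2 residual degrees of freedom). Fold changes on this scale understate those of low genes. The fits were tested on simulated data. The rule for named genes was all members, the 3 largest called differences in each direction per list, the overlapping partners and the 3 most alike genes. The members, lists and tests were chosen with earlier results of these data known. Alternatives were another pseudocount, no filter, 3 scalings, other libraries in the fit, another variance prior, a replicate block and leaving out each library.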

Additional observations from a re-analysis of the deposited data

Results flagged for a closer look

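The SNE minus CE difference of 4 members differed between days by the test of the difference itself (limma, adjusted over 23238 genes). KCNQ1OT1 moved by 1.31 ± 0.15 from day 0 to day 5 (adjusted p = 1.1e-05), with both day 5 CE libraries near 2 TPM and both SNE libraries above 56 TPM. PEG10 moved by 2.37 ± 0.09 to day 3 (adjusted p = 3.7e-09) and by 1.64 ± 0.09 to day 5 (adjusted p = 2.5e-08), from 39.2 and 41.7 TPM in day 0 SNE to at least 342 TPM in each day 3 SNE library. SNRPN moved by 1.47 ± 0.16 to day 5 (adjusted p = 6.7e-06). DIO3 moved by -1.95 ± 0.39 to day 5 (adjusted p = 0.0010), with SNE listed at 0 in both day 0 libraries.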

How the results depend on the processing

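Of 1769 recomputed member differences, 1671 kept their direction where called and their side of the threshold, 34 lost a call, 61 gained one and 3 reversed. The reversals were PHLDA2 in SNE minus CE of day 5 without the first CE library (2.25, and -3.32 without the second), PEG10 in ME minus CE of day 5 with quantile normalization (1.11) and the DIO3 change of SNE minus CE to day 5 with a pseudocount of 0.1 (0.78). The cause was not tested. Of 235 recomputed counts of called members, 224 stayed within 1.5 times. INPUT of day 3 against day 0 went from 2 to 5 with a pseudocount of 0.1 and to 4 with a common median and with quantile normalization. SNE minus CE of day 3 went from 5 to 3 with totals remade without mitochondrial and structured RNA. Its change to day 3 went from 1 to 2 with the smaller pseudocount. PE minus CE of day 0 went from 4 to 8 with a common median and 7 with quantile normalization. PolyA went from 0 to 2 under each of the 3 scalings and ranged from 0 to 1 when 1 library was left out. The gap between KCNQ1OT1 and the median imprinted mRNA was 5.49, 5.24 and 5.43 on days 0, 3 and 5 with the smaller pseudocount and 3.91 and 4.07 on days 3 and 5 with quantile normalization. Leaving out a replicate number gave 4.60 to 4.92, 4.21 to 4.64 and 5.02 to 5.47. Replicates share only a number in the labels. With the replicate block the number of called members was 7 in place of 6 in SNE minus CE of day 0, where PHLDA2 passed (adjusted p = 0.047), and equal in the other 17 comparisons. In PE minus CE of day 5, where same-numbered libraries deviated oppositely, a crossed pairing chosen after seeing the data gave 4 calls, as without it. Depth limits H19, MEG3 and all CBNE and day 0 PE values, where 1 to 5 reads can make a value.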
